A study of Mus musculus with 8 samples.

Results

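The 10 genes described here belong to the BCL2 family, which decides whether a cell keeps its mitochondrial outer membrane closed or opens it and dies. They were chosen by name and role: the effectors Bax, Bak1 and Bok, the BH3-only genes Bid, Bcl2l11, Bad, Bik and Bmf, and the survival genes Bcl2l1 and Mcl1. All 10 were found among the 14247 genes of the table, and all 10 passed the filter on low values, which kept 13503 genes. RNA was sequenced from colonic epithelial crypts of wild-type mice, with no treatment and no deletion in any group. The mice were on a C57BL/6 background, 2 to 4 months old and kept in 12 h of light and 12 h of dark. Crypts were collected at zeitgeber time (ZT) 0, when the lights go on, at ZT6, and in the active phase at ZT12, when the lights go off, and ZT18, with 2 libraries at each time point and 8 in all. The labels call the 2 libraries separate samples without saying that each came from its own animal, so the p-values measure the spread between these libraries. The study gives more mice for each group of this time course than the libraries used here, and any further libraries were not analysed here. The study asked whether genes of cell death follow the time of day in the gut epithelium. It tested for a 24 h rhythm over ZT0, ZT6, ZT12 and ZT18. Its scores of apoptosis genes were reported as higher at ZT0 to ZT6 and lower at ZT12. The contrast of ZT12 with ZT0 was chosen here, after the 2 times that the study compared in its colitis experiment.

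In healthy cells the survival proteins MCL1 and BCL-XL (the product of Bcl2l1) hold the effectors in check. BH3-only proteins sense damage, loss of growth factors or loss of attachment, and bind the survival proteins, while BID and BIM (the product of Bcl2l11) can also activate the effectors directly. Activated BAX and BAK assemble into pores that release cytochrome c, which starts the caspase cascade. In the gut epithelium this pathway removes damaged crypt cells, and BAX and BAK are the pair of effectors on which it mainly rests.

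By CUT&Tag, a sequencing assay of binding, the study reported BMAL1 at promoters in colonic organoids, those of Bax and Bak1 among them. It also reported lower Bax and Bak1 expression in the colonic epithelium after Bmal1 deletion. Because BMAL1 and CLOCK bind the E-box CACGTG, the promoters of the members were searched for it. A search for letters does not measure binding, and a promoter without them is not thereby shown to be unbound. Of the RefSeq promoters (build GRCm38.p6, 250 bases before to 50 bases after each start), 15 belonged to 9 of the 10 members. The E-box, which reads the same on both strands, was present in 1 of these 15, a Bax promoter, and in 7.15% of all 32851 promoters. The D-box letters TTATGTAA or TTACGTAA, the site of factors such as DBP, were searched on both strands and were in 0 of the 15 and in 1.06% of all promoters. The 250 bases upstream of Bax (chr7:45466899-45467148, minus strand) and of Bok (chr1:93685325-93685574, plus strand) are shown, since these 2 effectors had the lowest ZT12 levels relative to ZT0. Capitals mark the E-box, which in Bax lay 9 to 4 bases before the start, and the Bok stretch has none. The Bok gene model whose coordinates are given below starts later, at 93685660, than this RefSeq start. The bases directly before that later start are thus not shown.

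Bax: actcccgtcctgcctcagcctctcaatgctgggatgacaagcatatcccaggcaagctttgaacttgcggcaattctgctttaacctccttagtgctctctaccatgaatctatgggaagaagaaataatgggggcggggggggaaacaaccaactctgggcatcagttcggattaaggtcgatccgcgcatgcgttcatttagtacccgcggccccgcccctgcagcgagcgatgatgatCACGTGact

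Bok: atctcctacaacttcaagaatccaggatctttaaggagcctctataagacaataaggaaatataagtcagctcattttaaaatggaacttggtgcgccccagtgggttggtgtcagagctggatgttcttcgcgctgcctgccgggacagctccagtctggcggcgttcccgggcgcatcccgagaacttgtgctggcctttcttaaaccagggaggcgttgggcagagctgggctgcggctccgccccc

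Total reads ranged from 14722342 to 25159440 per library with a median of 17507372, and a count of 0 would have allowed up to 3 reads, or 2.41 to 3.70 normalised counts. No member came near that limit, with at least 61 reads in every library. A normalised count is a read count divided by 1 size factor per library. The epithelial markers were present in every library (10 of 10 genes, summed 254103 to 339642 normalised counts, the median of their log2 deviations from the mean library ran from -0.18 to 0.22). Markers of other cells moved more. The smooth muscle list (7 of 8 genes measured) summed to 544 to 1354 normalised counts in 7 libraries and to 5291 in ZT12 replicate 1, with Acta2, Des, Cnn1 and Actg2 at 0 in at least 1 library, and the fibroblast list (8 of 8) reached its highest deviation, 4.55, in the same library. The B and plasma cell list (7 of 8) summed to 141 to 2781 and was highest, at 4.57, in ZT0 replicate 2. In at least 1 library 5 fibroblast genes and 3 B and plasma cell genes were at 0, so these deviations rest in part on values at the floor. The mitochondrial genome took 6.68% of the counts in ZT12 replicate 1 and 7.85% in replicate 2, and 9.80% to 22.2% in the other 6 libraries. The time labels could be checked on the clock: Dbp was at 24.1 ± 3.79 normalised counts for ZT0 and 1353 ± 339 for ZT12 (SD over 2 libraries; log2 fold change 5.74, limma adjusted p 0.000137), and Arntl, which encodes BMAL1, was at 1318 ± 395 and 368 ± 95.6 (limma adjusted p 0.0717).

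No member passed the test over all genes, and Bok came closest. At ZT12 both Bok libraries and both Bax libraries were below both ZT0 libraries, as was the case for 20.3% of all genes. Bok was 2.88-fold and Bax 1.63-fold lower. The Bak1 libraries of these times overlapped, with a log2 fold change of 0.03 (95% interval -0.54 to 0.60). Bcl2l11 was highest at ZT18 and Bid at ZT6. The survival genes Bcl2l1 and Mcl1 had overlapping values at ZT0 and ZT12. With limma on log2(normalised count + 1), 0 of the 10 members had an adjusted p under 0.05 in the F-test over the 4 time points (0.0889% of all genes) and 2, Bok and Bcl2l11, had an unadjusted p under 0.05 (7.03% of all genes). Over the 4 time points, edgeR on the recovered reads called 0 members (10 of all 13503 genes). DESeq2 called 1, Bok (217 of all 13503 genes, 1.61%).

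**Figure D1:**
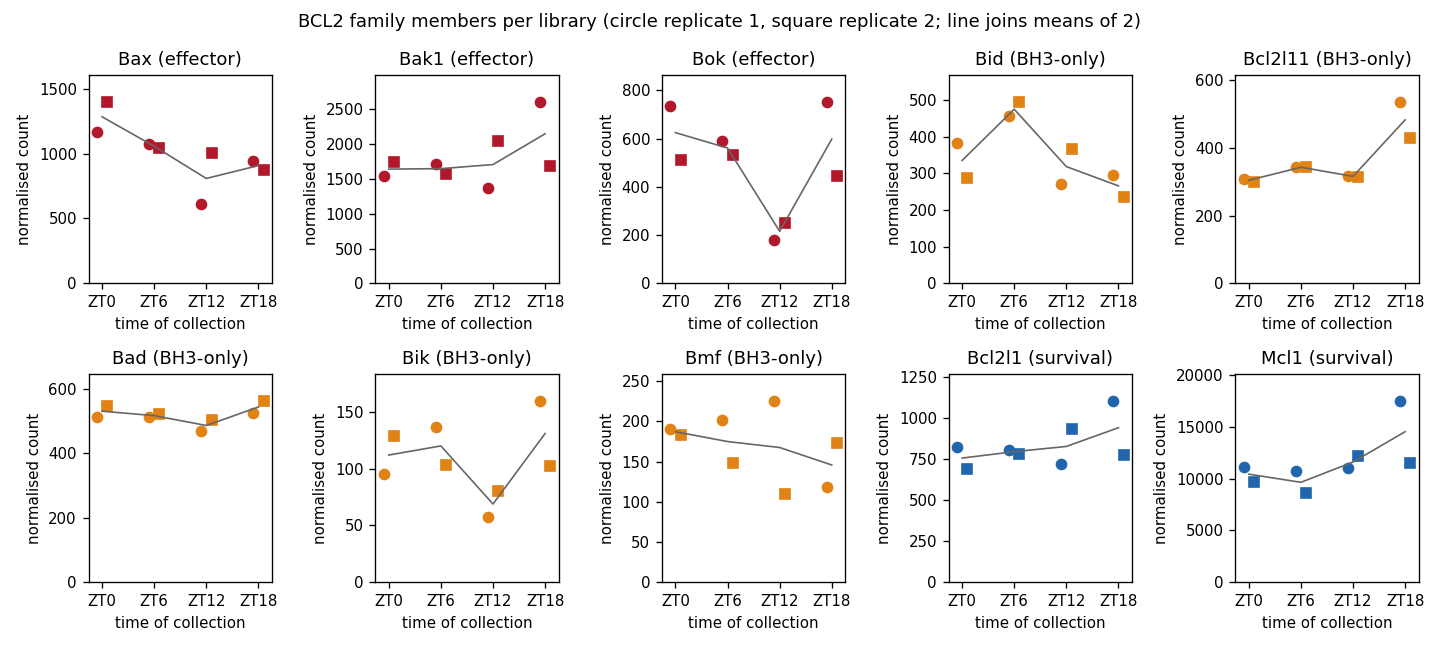
Normalised counts (vertical axis, starting at 0) of the 10 members at ZT0, ZT6, ZT12 and ZT18 (horizontal axis); circles are replicate 1, squares replicate 2, and the line joins the means of 2 libraries. Both ZT12 points of Bok, 179.8 and 252, lie under its other 6 points, which run from 445 to 752, whereas the points of Bak1 overlap between each pair of time points.

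Bax (ENSMUSG00000003873, GRCm38 chr7:45461697-45466898, minus strand) encodes the effector that moves from the cytosol to mitochondria when activated. Its normalised counts in replicates 1 and 2 were 1169 and 1396 (ZT0), 1071 and 1041 (ZT6), 614 and 1002 (ZT12) and 945 and 869 (ZT18). Both ZT0 libraries were above the other 6, which was the case for 3.63% of all genes tested. The ZT12 libraries differed from each other more than those of any other time point, and replicate 1 was the lowest of all 8. Between the ZT0 mean of 1283 ± 161 and the ZT12 mean of 808 ± 274 (SD, n = 2) the log2 fold change was -0.70 (SE 0.24, 95% interval -1.24 to -0.17), with a limma adjusted p of 0.407 over all genes. Without ZT12 replicate 1 the log2 difference was -0.35, and without that library and ZT0 replicate 2, the libraries highest in smooth muscle and in B cell markers, it was -0.22. These are crypts in bulk, so fewer cells of a type and less RNA per cell cannot be told apart. The 24 h cosine fit gave Bax an amplitude of 0.37 on the log2 scale and a peak at 1.16 h (limma unadjusted p 0.025, adjusted 0.502). An exact rank test for a 24 h wave gave it a p of 0.114, the smallest among the members, where 0.0190 is the smallest p that 8 libraries allow. The annotation places 12.2% of the exon bases of Bax under another gene model on the same strand, Gm45808, so its reads may be shared with it.

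Bak1 (ENSMUSG00000057789, chr17:27019810-27029009, minus strand) encodes the effector that already sits in the mitochondrial membrane. Its normalised counts were 1536 and 1746 (ZT0), 1719 and 1576 (ZT6), 1374 and 2038 (ZT12) and 2603 and 1691 (ZT18). The ranges of all 4 time points overlapped, and ZT18 replicate 1 was the highest library. The log2 fold change of ZT12 over ZT0 was 0.03 (SE 0.25, 95% interval -0.54 to 0.60; limma adjusted p 0.972), an interval that holds changes of either sign; it turned to -0.06 without ZT0 replicate 1, -0.25 without ZT12 replicate 2, -0.0042 with scaling outside the mitochondrial genome and -0.015 with quantile normalisation. Bak1 shares up to 18.2% of its exon bases with Ggnbp1 on the opposite strand, and whether counting used strand is not given in the sources used here.

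Bok (ENSMUSG00000026278, chr1:93685660-93695764, plus strand) encodes another effector, whose protein is kept low by degradation at the endoplasmic reticulum. Its normalised counts were 737 and 513 (ZT0), 591 and 531 (ZT6), 179.8 and 252 (ZT12) and 752 and 445 (ZT18). The ZT12 libraries were both below the other 6, as for 5.7% of all genes, and the other 3 time points overlapped one another. The low values were thus those of ZT12, while ZT18, also in the active phase, had values that overlapped those of the resting phase. Between the ZT0 mean of 625 ± 158 and the ZT12 mean of 216 ± 51.4 (SD, n = 2) the log2 fold change was -1.52 (SE 0.31, 95% interval -2.22 to -0.83), and no member differed more between these times. Its limma adjusted p was 0.239 for ZT12 against ZT0, and its limma F-test p was 0.002 (adjusted 0.491), rank 54 of 13503 genes. In both tests DESeq2 was the only alternative that called Bok. DESeq2 on the recovered reads gave -1.53 (SE 0.35, adjusted p 0.00229, with 1.24% of the genes that had an adjusted p called). It also called Bok at ZT12 against ZT6 (-1.38, adjusted p 0.0256, 0.326% of all genes) and at ZT18 against ZT12 (1.47, adjusted p 0.00685, 0.748%). Over the 4 time points its adjusted p for Bok was 0.00797 (1.61% of all genes called). In edgeR the adjusted p for ZT12 against ZT0 was 0.295.

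The 2 libraries low in Bok were also the 2 highest in the smooth muscle list (median log2 deviation 6.21 and 2.20, against -2.32 to -0.13 in the other 6) and the 2 lowest in mitochondrial share. The part of these in the Bok difference was not tested. Bok remained lower at ZT12 than at ZT0 when single libraries were left out, with log2 fold changes between -1.79 and -1.26 and -1.28 without ZT12 replicate 1, and it was -1.54 without that library and ZT0 replicate 2.

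**Figure D2:**
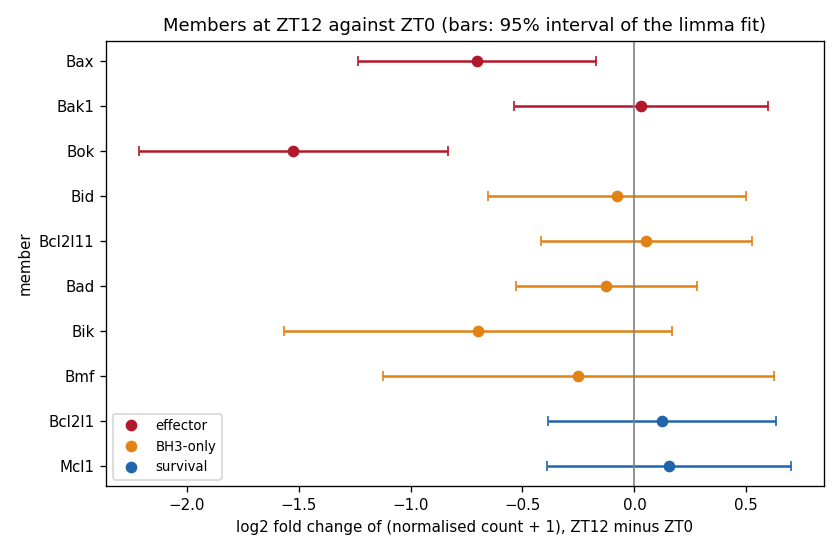
Log2 fold change of each member at ZT12 against ZT0 on the log2(normalised count + 1) scale (horizontal axis), coloured by role; points are estimates from 2 libraries per time point and bars are 95% intervals of the limma fit, unadjusted for the number of genes. The intervals of Bok (-2.22 to -0.83) and Bax (-1.24 to -0.17) lie below 0, and those of the other 8 members include it.

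Among the BH3-only genes, Bid stood apart at ZT6, Bcl2l11 at ZT0 and ZT18, and Bik and Bad at ZT12, while Bmf stood apart at no time point. Each of these placements held for 3.64% to 5.7% of all genes. The share of all genes apart at any time point was not counted. Bid (ENSMUSG00000004446, chr6:120891930-120916853, minus strand) encodes the protein that links death receptors and caspase-8 to mitochondria. Its normalised counts were 382 and 287 (ZT0), 455 and 494 (ZT6), 269.7 and 367 (ZT12) and 295 and 236 (ZT18). Both ZT6 libraries were above the other 6 (3.64% of all genes), and ZT18 was lower than ZT6 by a log2 fold change of -0.84 (SE 0.26; limma unadjusted p 0.0091, adjusted 0.634). In the cosine fit Bid peaked at 5.66 h with an amplitude of 0.42 (unadjusted p 0.021, adjusted 0.494). Between ZT0 and ZT12 its values overlapped, with a log2 fold change of -0.08 (SE 0.26) that turned to 0.13 without ZT0 replicate 1 and to 0.15 without ZT12 replicate 1. Bid shares 17.7% of its exon bases with another family gene, Bcl2l13, on the opposite strand.

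Bcl2l11 (ENSMUSG00000027381, chr2:128126038-128162547, plus strand) encodes BIM, which is induced when growth factors are withdrawn. Its normalised counts were 308 and 299 (ZT0), 343 and 342 (ZT6), 316 and 315 (ZT12) and 534 and 429 (ZT18). Both ZT18 libraries were above the other 6 (4.07% of all genes) and both ZT0 libraries were below the other 6 (3.78%). Between the ZT0 mean of 304 ± 6.01 and the ZT18 mean of 481 ± 74.5 (SD, n = 2) the log2 fold change was 0.65 (SE 0.21; limma unadjusted p 0.012, adjusted 0.890), and it was 0.50 without ZT18 replicate 1. ZT18 was also above ZT6 by 0.48 (adjusted p 0.741) and above ZT12 by 0.60 (adjusted p 0.520). Its ZT12 and ZT0 levels were close, with a log2 fold change of 0.05 (SE 0.21, 95% interval -0.42 to 0.52), although the libraries did not overlap.

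Bik (ENSMUSG00000016758, chr15:83526862-83544634, plus strand), whose protein acts at the endoplasmic reticulum, was one of the lower members. Its normalised counts were 95.4 and 129 (ZT0), 137 and 103 (ZT6), 57.1 and 80.7 (ZT12) and 159.8 and 102 (ZT18). As in Bok, both ZT12 libraries were below the other 6 (5.7% of all genes). The log2 fold change of ZT12 over ZT0 was -0.70 (SE 0.38, 95% interval -1.57 to 0.17; limma adjusted p 0.562), the same size as that of Bax with a wider interval, and it was -0.45 without ZT12 replicate 1. ZT18 was above ZT12 by 0.90 (unadjusted p 0.043, adjusted 0.552).

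Bad and Bmf encode sensors of growth factor signalling and of cell attachment. Bad (ENSMUSG00000024959, chr19:6941861-6951899, plus strand) varied least of the 10 members, between 470.0 and 562 normalised counts, or 1.20-fold. Its ZT12 libraries, 470.0 and 502, were the 2 lowest of the 8 (5.7% of all genes), at a log2 fold change of -0.13 from ZT0 (SE 0.18). Of the exon bases of Bad, 20.5% overlap Gpr137 on the opposite strand. Bmf (ENSMUSG00000040093, chr2:118528757-118549687, minus strand) had 191 and 184 normalised counts at ZT0 and 226 and 109.5 at ZT12, so that the ZT12 libraries lay on both sides of the ZT0 ones. Its log2 fold change of -0.25 (SE 0.39) became 0.27 without ZT12 replicate 2.

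Of the survival genes, Mcl1 (ENSMUSG00000038612, chr3:95658788-95663176, plus strand) encodes a protein with a short half-life. Its normalised counts were 11171 and 9709 (ZT0), 10723 and 8585 (ZT6), 11032 and 12193 (ZT12) and 17523 and 11555 (ZT18). ZT18 replicate 1 stood above the other 7 libraries. The log2 fold change of ZT12 over ZT0 was 0.16 (SE 0.24, 95% interval -0.39 to 0.70; limma adjusted p 0.843). ZT18 was above ZT6 by 0.57 (SE 0.24; unadjusted p 0.043, adjusted 0.741), and by 0.27 without ZT18 replicate 1. Bcl2l1 (ENSMUSG00000007659, chr2:152780668-152831728, minus strand) encodes BCL-XL and had 825 and 689 normalised counts (ZT0), 809 and 783 (ZT6), 724 and 933 (ZT12) and 1106 and 779 (ZT18). Its log2 fold change of ZT12 over ZT0 was 0.12 (SE 0.23, 95% interval -0.38 to 0.63), and it turned to -0.0066 without ZT0 replicate 2 and to -0.060 without ZT12 replicate 2.

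Some libraries were extreme for many members at once. ZT18 replicate 1 held the highest value of 6 members (Bak1, Bok, Bcl2l11, Bik, Bcl2l1 and Mcl1), among them effectors, BH3-only genes and survival genes. ZT12 replicate 1 held the lowest of 5 (Bax, Bak1, Bok, Bad and Bik). The share of all genes with their highest or lowest value in these libraries was not counted. These counts therefore do not tell a trait of the members from one of the whole library. ZT18 replicate 1 was also the library with the most reads and with the highest mitochondrial share, 22.2%, and the colonocyte list (6 of 6 genes measured) and goblet cell list (7 of 7) had their highest median log2 deviations there, 0.37 and 0.49. The part of depth, mitochondrial share and cell makeup in these values was not tested.

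To compare members with one another, each normalised count was divided by the length of the gene's exons in kilobases. Mcl1 had the highest length-scaled level, with a median of 3248 normalised counts per kb over the 8 libraries (2512 to 5127), and made up 59.7% of the summed mean level of the 10 members. Bak1 followed at 708 (571 to 1082), and its range did not touch that of Mcl1, which was 4.59-fold higher by the medians. Bax stood at 648 (390 to 886) and was above Bak1 in 3 libraries and below it in 5, so these neighbours did not differ beyond their spread.

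Below these came Bok at a median of 284 (97.7 to 409), under Bax in 8 of 8 libraries. Bad, at 202, and Bcl2l1, at 174, overlapped with each other and with Bok in their ranges. The BH3-only genes Bid, Bik, Bcl2l11 and Bmf had medians of 93.2, 64.6, 40.9 and 33.9, each overlapping with its neighbour, and all 8 Bid levels were under all 8 Bcl2l1 levels. Thus the members that trigger the pathway had lower transcript levels than the effectors Bax and Bak1 that carry it out in every library, and Bcl2l1 was far below Mcl1. Transcript levels per length do not give protein levels.

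**Figure D3:**
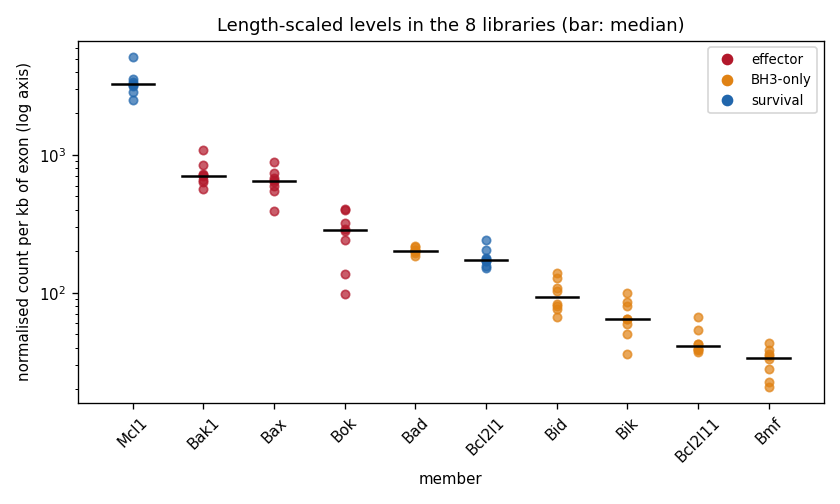
Length-scaled level of each member in normalised counts per kb of exon (vertical axis, log scale), 1 point for each of the 8 libraries, with a bar at the median and members ordered by it. Mcl1 (2512 to 5127) is apart from Bak1 (571 to 1082) and Bax (390 to 886), and Bmf is lowest at a median of 33.9.

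The balance of death and survival members was described by the log2 ratio of the summed length-scaled levels of Bax, Bak1 and Bok to those of Bcl2l1 and Mcl1, which does not depend on how libraries are scaled. The ratio was -0.95 and -0.66 (ZT0), -0.95 and -0.74 (ZT6), -1.68 and -1.22 (ZT12) and -1.36 and -1.25 (ZT18). All 4 libraries of the active phase were thus below all 4 of the resting phase. On the linear scale, effector transcripts amounted to between 0.313 and 0.632 of the transcripts of Bcl2l1 and Mcl1. The survival genes Bcl2 and Bcl2l2 were not among the members and are not in this sum. Bcl2l2, named here after its values were seen, was at 1001 ± 109 normalised counts (ZT0) and 1374 ± 45.9 (ZT12; SD, n = 2). Its limma unadjusted p was 0.026 and its adjusted p 0.456. Bcl2 was at 211 ± 1.52 and 188 ± 39.0, with overlapping libraries. ZT12 was lower than ZT0 by a log2 difference of -0.64, against a pooled SD of 0.21 between libraries of a time point, and the difference was -0.41 without ZT12 replicate 1. It is given without a test because the score was built from chosen members.

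The active-phase libraries reached a low ratio with different sums, also within a time point. At ZT12 replicate 1 the effector sum was the lowest, 1058 normalised counts per kb, while replicate 2, at 1620, lay within the 1604 to 1890 of the resting phase. The survival sums of ZT12 were 3386 and 3771, 1 within and 1 above the resting range of 2682 to 3448. At ZT18 replicate 1 both sums were the highest of the 8 libraries, 2090 for effectors and 5368 for survival genes, and in replicate 2 they were 1496 and 3550. Mcl1 gave at least 93.6% of the survival sum in every library. The BH3-only sum moved less, between 378 and 495, and adding it to the effectors left the log2 difference of ZT12 from ZT0 at -0.57.

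By pair, the ratio to Mcl1 differed more between ZT0 and ZT12 for Bax than for Bak1. The log2 ratio of Bax to Mcl1 was -2.14 and -1.68 at ZT0 and -3.05 and -2.49 at ZT12, a difference of -0.86 with a pooled SD of 0.32. For Bak1 to Mcl1 the difference was -0.12 with a pooled SD of 0.22, and the libraries overlapped. Within the effectors, the log2 ratio of Bax to Bak1 was 0.22 and 0.29 (ZT0), -0.07 and 0.01 (ZT6), -0.55 and -0.41 (ZT12) and -0.85 and -0.35 (ZT18). By length-scaled level, Bax was therefore the higher of the pair in both ZT0 libraries and the lower in all 4 active-phase libraries. The ZT12 minus ZT0 difference was -0.73 with a pooled SD of 0.19. Which of the pair is higher depends on the exon lengths used. By normalised counts not scaled to length, Bak1 was above Bax in every library (at ZT0, 1536 and 1746 against 1169 and 1396). Bok made up 9.23% and 8.47% of the effector sum at ZT12, and 14.8% to 22.5% of it in the other 6 libraries.

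**Figure D4:**
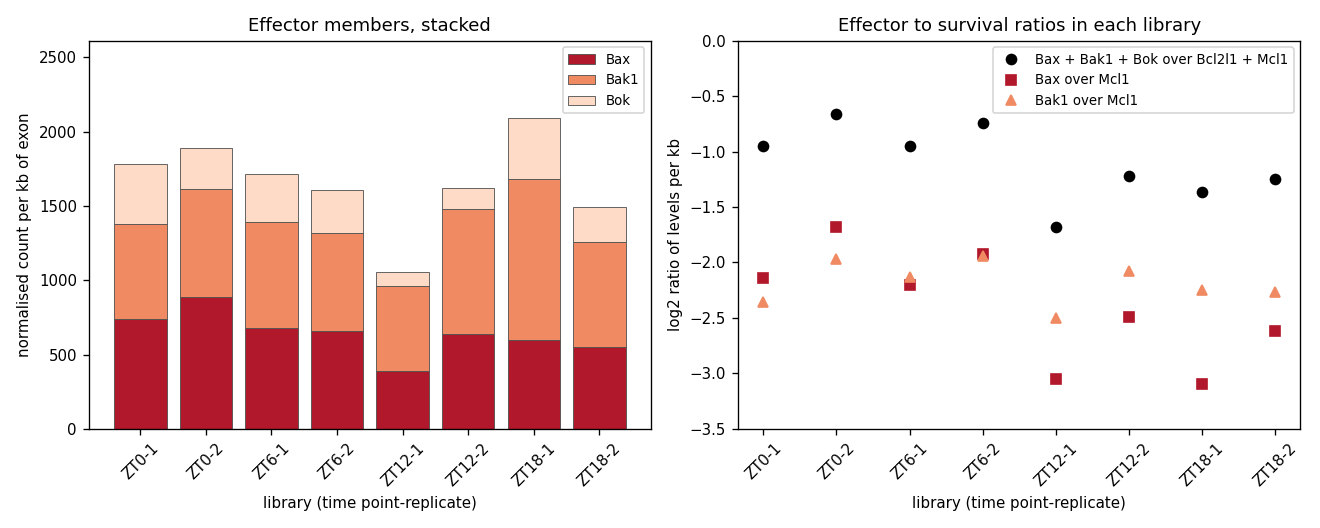
Left, length-scaled levels of Bax, Bak1 and Bok stacked for each of the 8 libraries (normalised counts per kb, axis starting at 0); right, log2 ratios of length-scaled levels in the same libraries, for summed effectors over summed survival genes (circles), Bax over Mcl1 (squares) and Bak1 over Mcl1 (triangles). The circles lie between -0.95 and -0.66 in the resting phase and between -1.68 and -1.22 in the active phase, while the triangles overlap between phases.

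Counted over the members, 6 of 10 were lower at ZT12 than at ZT0, where 48.6% of all genes were lower, and the median log2 fold change was -0.10 against 0.015 for all genes. The libraries did not overlap for 4 lower members, Bax, Bok, Bad and Bik (20.3% of all genes), and for 1 higher member, Bcl2l11 (20.7%). The limma fit called 0 members (0.0667% of all genes), and 2, Bax and Bok, had an unadjusted p under 0.05 (9.96%). The number of lower members was 7 without ZT0 replicate 2 or without ZT12 replicate 2, 5 without ZT12 replicate 1, and 7 with quantile normalisation or scaling outside the mitochondrial genome.

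In the other 5 pairs of time points, which share libraries with one another, limma called 0 members. From ZT6 to ZT12, 7 members were lower and 3 higher, with 6 lower members (22.2% of all genes) and 1 higher member, Mcl1 (23.5%), not overlapping and 2 at an unadjusted p under 0.05, Bok and Bid (6.78%; adjusted, 0.0%). From ZT12 to ZT18, 8 members were higher and 2 lower, with a median log2 fold change of 0.25 against -0.02 for all genes, 4 higher (17.8%) and 0 lower members (18.7%) not overlapping, and Bok, Bcl2l11 and Bik at an unadjusted p under 0.05 (9.03%; adjusted, 0.0296%). From ZT6 to ZT18 the libraries did not overlap for 2 lower (18.8% of all genes) and 3 higher members (19.2%), and Bid, Bcl2l11 and Mcl1 had an unadjusted p under 0.05 (6.71%; adjusted, 0.0444%). From ZT0 to ZT18 these counts were 2 lower (13.9%) and 2 higher (13.6%), with only Bcl2l11 at an unadjusted p under 0.05 (5.02%; adjusted, 0.0%). From ZT0 to ZT6 they were 1 lower, Bax (18.7%), and 2 higher, Bid and Bcl2l11 (18.9%), with 0 at an unadjusted p under 0.05 (4.13%; adjusted, 0.0444%). In the 24 h cosine fit, limma called 0 members (0.118% of all genes), and 3, Bax, Bok and Bid, had an unadjusted p under 0.05 (9.15%), with peaks at 1.16, 23.9 and 5.66 h. edgeR called 0 members in the cosine fit (12 of all 13503 genes) and DESeq2 also 0 (1.62% of the 11670 genes with an adjusted p). The exact rank test called 0 members and 0 genes, which 8 libraries nearly fix in advance. Its smallest p of 0.0190 cannot pass an adjustment over 13503 genes unless many genes reach it together.

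Other genes of the pathway were read from 3 lists. Of 16 further family genes, 10 were in the table, with 5 lower and 5 higher at ZT12 than at ZT0 and a median log2 fold change of -0.03. Of 25 genes of the mitochondrial death pathway downstream of the family, 24 were in the table (11 lower, 13 higher, median 0.08). Of 25 upstream inputs, 23 were in the table (10 lower, 13 higher, median 0.02). limma called 0 genes of these lists in the F-test, the cosine fit or the contrast of ZT12 with ZT0, and edgeR also called 0. In that contrast 1, 1 and 3 genes of the lists had a limma unadjusted p under 0.05 (9.96% of all genes). DESeq2 called 1 gene, Birc3, over the 4 time points (adjusted p 0.0475, with 1.61% of all genes called). It also called Birc3 in the cosine fit (adjusted p 0.0105, with 1.62% of genes that had an adjusted p). Between ZT6 and ZT18 it called Birc3 as well (adjusted p 0.0377, with 0.504% of all genes). As a share, 1 gene among 57 is near 1.61% and 1.62% and above 0.504%.

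Birc3, named here after its values were seen, encodes the inhibitor of apoptosis cIAP2. It had 1967 and 1156 normalised counts (ZT0), 1931 and 1884 (ZT6), 1140.4 and 1138 (ZT12) and 1030 and 839.7 (ZT18), so that both ZT18 libraries were the lowest. Among genes whose ZT0 and ZT12 libraries did not overlap, the lowest relative to ZT0 were Birc5, which encodes the mitotic and apoptosis inhibitor survivin (ZT0 406 ± 20.1, ZT12 189 ± 82.6, SD over 2 libraries; limma adjusted p 0.378), and Ddit3, which encodes the stress factor CHOP (344 ± 60.9 and 183 ± 94.8; adjusted p 0.460). The highest relative to ZT0 were the family gene Bcl2l12 (32.4 ± 13.5 and 70.7 ± 5.98; adjusted p 0.549) and Endog, which encodes the mitochondrial endonuclease G (122 ± 25.2 and 182 ± 3.32; adjusted p 0.524). As a comparison, 6 of 13 clock genes passed the same test for ZT12 against ZT0 and 7 passed the F-test.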

How the data were processed

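RNA sequencing of crypt epithelium gave 8 libraries, 2 at each of 4 time points, grouped by the time in their labels. Per the study's methods and the submitters' processing notes, the authors aligned reads with STAR to GRCm38 and used DESeq2; read counting, strand use and annotation are not given in the sources used here. The labels and the methods name different library kits. The authors deposited a signal, the read count of a gene after division by the size factor of its library, named the normalised count here. Columns with the authors' own log2 fold change, its standard error, test score and p-value were deposited for 1 unnamed contrast and not used. No column lacked a sample. Low values were whole multiples of 1 read, and 100% of values came out whole within 0.1 read, so read counts were recovered for edgeR 4.0.16 and DESeq2 1.42.0 as alternatives.

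Tests used limma 3.58.1 (mean-variance trend, R 4.3.3) on log2(normalised count + 1) for those genes whose mean was 10 or more, with 1 mean per time point over all 8 libraries. They comprised the F-test over the 4 time points, the 6 contrasts between them, a 24 h cosine and, separately, an exact two-sided rank test. The log2 scale with an added 1 understates changes of low genes. P-values were adjusted by Benjamini-Hochberg over all 13503 genes with a threshold of 0.05. Depth was 14722342 to 25159440 reads, and limits from counts of 0 cover counting error only; the spread between 2 libraries sets the precision. Length-scaled levels used merged GENCODE M21 exons. The code was tested on simulated data. Alternatives were other pseudocounts, filters, scalings, tools, a replicate block and left-out libraries. The members and lists were chosen with earlier results of these data known. The rule for named genes took all 10 members, Arntl and Dbp, every gene of 3 pathway lists called by limma and otherwise the 2 largest rises and falls at ZT12 among genes whose libraries did not overlap. Marker lists covered epithelium, colonocytes, goblet cells, stem and proliferating cells, smooth muscle, fibroblasts, B and plasma cells, T cells, myeloid cells and endothelium.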

Additional observations from a re-analysis of the deposited data

How the results depend on the processing

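Counts of members called stayed at 0 under each alternative except DESeq2, which called 1 member over the 4 time points, 1 for ZT12 against ZT0 and 2 differences in the other 5 contrasts, all of them Bok. The cause was not tested. Over all genes, limma, edgeR and DESeq2 called 12, 10 and 217 genes over the 4 time points, 16, 12 and 189 in the cosine fit, and 9, 5 and 135 for ZT12 against ZT0. The log2 difference of ZT12 from ZT0 kept its sign for Bax (-1.06 to -0.22), Bok (-1.79 to -1.26), Bik (-0.94 to -0.24), Bad (-0.17 to -0.03), Bcl2l11 (0.02 to 0.10) and Mcl1 (0.05 to 0.26). It turned for Bak1 to -0.0042 with scaling outside the mitochondrial genome and to -0.015 with quantile normalisation. With single libraries left out it ran from -0.25 to 0.32 for Bak1 (-0.06 without ZT0 replicate 1, -0.25 without ZT12 replicate 2), from -0.30 to 0.15 for Bid (0.13 without ZT0 replicate 1, 0.15 without ZT12 replicate 1), from -0.77 to 0.27 for Bmf (0.27 without ZT12 replicate 2) and from -0.060 to 0.31 for Bcl2l1 (-0.0066 without ZT0 replicate 2, -0.060 without ZT12 replicate 2). The balance difference of ZT12 from ZT0 was -0.87 with mean log2 levels in place of sums, and -0.87 to -0.41 with single libraries left out. Where a library was left out, the lone library of its time point was assumed to vary like the others. The median of all genes for ZT12 against ZT0 moved between -0.020 and 0.015 with the scaling.

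The libraries were not paired by replicate number: the correlations of deviations between same-numbered libraries ran from -0.29 to 0.22. With the replicate block, 0 members were called in any test, and the limma adjusted p of Bok for ZT12 against ZT0 was 0.293. The block moved the count of all genes from 12 to 8 over the 4 time points. The 95% intervals of the members are unadjusted, and a difference whose interval leaves out 0, such as those of Bok and Bax, can still miss the threshold over all genes.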

Other observations

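Marker lists of epithelial subtypes also differed between libraries. Their median log2 deviations ran from -0.21 to 0.37 for colonocytes, from -0.43 to 0.49 for goblet cells (summed 257793 to 507292 normalised counts) and from -0.24 in ZT18 replicate 1 to 0.37 in ZT0 replicate 1 for stem and proliferating cells. The T cell list ran from -2.47 to 1.66, the myeloid list from -1.05 to 1.48 and the endothelial list from -1.56 to 1.95. In at least 1 library 7 of 8 T cell genes, 3 of 7 myeloid genes and 1 of 4 endothelial genes were at 0. The T cell list summed to only 14.9 to 271 normalised counts. These ranges therefore rest in part on values at the floor.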
